A study of Mus musculus with 2 samples.

Results

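The calcium/calmodulin-dependent kinases described here are 10 genes: Camk2a, Camk2b, Camk2d and Camk2g, which encode the subunits of CaMKII, the signalling kinases Camk1, Camk1d and Camk4, the upstream kinases Camkk1 and Camkk2, and the kinase-like gene Camkv. They were taken by symbol and not by a cut on any measured value, though with earlier results of these data known. They are 10 of 55536 genes and 100 of 141767 annotated transcripts in the deposited tables. When calcium enters a neuron it loads calmodulin, which opens the autoinhibited kinase. CaMKII forms large ring-shaped holoenzymes that phosphorylate themselves and stay active after the calcium signal, and in forebrain synapses it is known for its part in long-term potentiation. CaMKI and CaMKIV act as single subunits and reach full activity when a CaM kinase kinase phosphorylates them.

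The tissue was left cerebral cortex, from 2 male B6CASTF1/J mice aged 2 months. This strain is a first-generation hybrid between C57BL/6J and CAST/EiJ, and the labels give no transgene, mutation or treatment. Each animal gave 1 total RNA library with reduced ribosomal RNA, made from 300 ng of RNA with ERCC spike-ins, and both belong to a single group as replicate 1 and replicate 2. The labels number the males separately but cite 1 donor record for both, and nothing else in them says how the animals were related. The hybrid carries a CAST/EiJ copy of every autosome while reads were assigned to a reference built from C57BL/6J. The effect of that mismatch was not tested.

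The libraries held 33007629 and 32142918 expected counts, which are estimated read numbers, and a gene at 0 could hold up to 3 counts, or 0.0909 and 0.0933 CPM (counts scaled to library size). Markers of the labelled tissue were present. The 5 excitatory neuron markers summed to 749 and 743 TPM (a level corrected for transcript length and scaled to 1 total in every library) in replicates 1 and 2, the 5 inhibitory neuron markers to 523 and 482 TPM, the 6 astrocyte markers to 1437 and 1430 TPM, the 5 microglial markers to 73 and 68.5 TPM and the 4 endothelial markers to 90.9 and 87.3 TPM. Markers of other structures were also measured. The 4 hippocampal markers summed to 71.3 and 58.5 TPM, the 4 cerebellar granule cell markers to 7.09 and 3.51 TPM and the 4 choroid plexus markers to 4.39 and 6.09 TPM, with Folr1 listed at 0 in replicate 1. Most of the hippocampal sum was Wfs1, at 62.88 and 52.16 TPM, and most of the cerebellar sum was Cbln1, at 6.54 and 3.27 TPM. The other cerebellar markers, Gabra6, Cbln3 and Fat2, were each under 1 TPM in both libraries. The 9 striatal neuron markers summed to 362 and 206 TPM, and the 6 oligodendrocyte markers to 826 and 671 TPM. In bulk tissue, fewer cells of a type and less RNA per cell cannot be told apart.

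All 10 kinases were expressed at levels well above the middle of the cortical transcriptome. The lowest library value of any of them was 48.15 TPM, for Camk1 in replicate 1, against a median of 15.92 TPM over the 12934 protein-coding genes with at least 1 TPM in both libraries. Together they reached 2097 and 2177 TPM in replicates 1 and 2 (2137 ± 56.2, SD, n = 2), and took 0.474% and 0.495% of all gene counts. The 4 CaMKII genes made up 76.5% and 77.3% of that summed TPM. The order of the mean levels was Camk2a, Camk2b, Camkv, Camk2g, Camkk2, Camk2d, Camk4, Camk1d, Camkk1 and Camk1. Neighbours overlapped between the animals at Camkv and Camk2g, and again at Camkk1 and Camk1, so those pairs were not ordered beyond their spread.

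**Figure D1:**
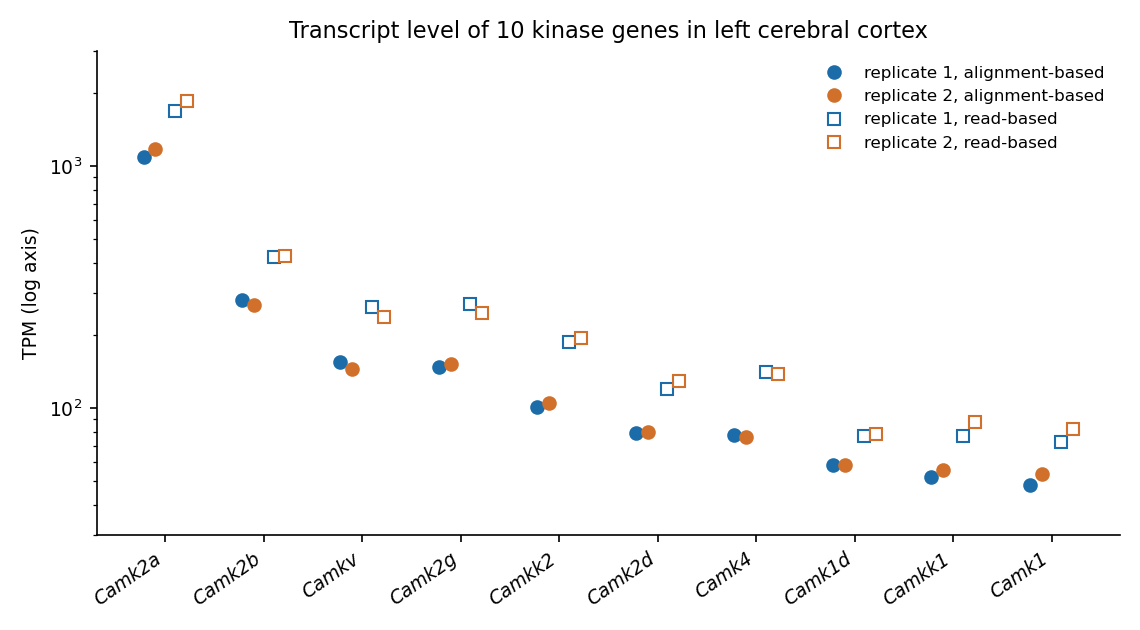
TPM on a log axis for the 10 kinase genes in each library, in order of their mean level, with filled circles for the alignment-based quantification and open squares for the read-based one (blue, replicate 1; orange, replicate 2). Camk2a lies between 1096 and 1868 TPM in the 4 estimates and the other genes lie between 48.15 and 425 TPM.

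The order depended in part on how reads were assigned. The values above come from a quantification made through an alignment to the transcriptome, while a second deposited one was made straight from a reads file. In the read-based values every member was higher, by 1.33-fold to 1.85-fold, with a median of 1.57-fold. Protein-coding genes took 49.4% and 48.1% of all TPM in the alignment-based tables and 80.3% and 80.4% in the read-based ones. Scaled to protein-coding genes alone, the 10 members summed to 4386 ± 200 TPM and to 4241 ± 144 TPM in these quantifications (SD, n = 2 each). The read-based order placed Camk4, at 142 and 139 TPM, above Camk2d, at 120 and 129 TPM, and Camkk1 above Camk1d, with overlap among Camkk1, Camk1d and Camk1.

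Of the 100 annotated transcripts, 38 are complete coding forms, 16 are coding fragments with an open end, 25 are marked as retaining an intron, 14 are processed transcripts and 7 are marked for nonsense-mediated decay. Each quantification listed 18 of them at 0 in both libraries, and 8 were at 0 in all 4 tables. The form with the highest TPM was the same in both quantifications for 9 of the 10 genes.

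Camk2a encodes the alpha subunit of CaMKII, the form that marks forebrain excitatory neurons, and it was the most abundant kinase of the group by a wide margin. Its gene (ENSMUSG00000024617.16) lies on the plus strand of chromosome 18, 60925618 to 60988152, in build mm10, as do all coordinates given here. It stood at 1096 and 1181 TPM in replicates 1 and 2, which is rank 17 and rank 12 among 22028 protein-coding genes. These levels were 3.90-fold and 4.41-fold those of Camk2b, the next gene. Camk2a alone held 68.3% and 70.2% of the summed TPM of the 4 CaMKII genes (69.3% ± 1.37, SD, n = 2), and the read-based share was 67.7% and 69.9%.

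Most reads of Camk2a belonged to one annotated form. Camk2a-203, a 4970-base transcript that codes for 478 amino acids, held 87.9% and 87.1% of the gene's counts but 64.1% and 63.4% of its TPM. The difference lay in Camk2a-207, a 530-base annotated fragment of a coding transcript, of which 452 bases are shared with Camk2a-203. That fragment took 2.99% and 2.94% of the counts, and because TPM divides by length it took 24.6% and 24.2% of the TPM. With the effective length of Camk2a-203 used for every read of the gene, the level was 800 and 859 TPM in replicates 1 and 2. The same change, with each member at the length of its own form with the most counts, set Camk2a at 2.97-fold and 3.34-fold Camk2b, and its share of the CaMKII sum at 65.4% and 67.5%.

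Another Camk2a form, Camk2a-201, codes for 489 amino acids and carries a 33-base exon that Camk2a-203 lacks. It held 9.42% and 10.04% of the TPM. A short form, Camk2a-202 of 189 amino acids, held 0.957% and 1.18% of the TPM in the alignment-based tables and 12.1% and 9.89% in the read-based ones, so its level was not settled by these data.

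Camk2b encodes the beta subunit, which binds filamentous actin and tethers the holoenzyme in spines. The gene (ENSMUSG00000057897.14) lies on the minus strand of chromosome 11, 5969644 to 6066362. Its level was 280.7 TPM in replicate 1 and 268 TPM in replicate 2, rank 192 and rank 198 among protein-coding genes, and it held 17.5% and 15.9% of the CaMKII sum. One form dominated. Camk2b-209, of 542 amino acids, took 91.0% and 89.5% of the TPM and 94.9% and 93.2% of the counts, and none of the other 14 annotated transcripts reached 5% in both libraries of either quantification.

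Camk2g encodes the gamma subunit, which is expressed in many tissues and is known in neurons as a shuttle of calcium and calmodulin to the nucleus. The gene (ENSMUSG00000021820.18) lies on the minus strand of chromosome 14, 20734875 to 20794088. It stood at 148.6 and 152.6 TPM, rank 539 and rank 484, or 9.26% and 9.07% of the CaMKII sum. With the length of Camk2g-203, its form with the most counts, the level was 90.2 and 94.1 TPM, about that of Camkk2 on the same scale at 88.5 and 95.4 TPM. No form held a majority of the gene. Camk2g-203 (495 amino acids) had 24.8% and 24.2% of the TPM, Camk2g-201 (529 amino acids) 16.3% and 18.8%, and Camk2g-202 (518 amino acids) 9.23% and 8.08%. In the read-based tables Camk2g-203 had 13.3% and 15.9% and Camk2g-201 had 19.7% and 24.4%, so the order of these forms turned with the quantification.

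Short annotated pieces took much of the remaining Camk2g TPM. The fragments Camk2g-212 and Camk2g-204, of 673 and 722 bases, took 18.5% and 20.2%, and 11.3% and 10.4%, of the TPM in replicates 1 and 2. The processed transcript Camk2g-215 held 11.3% and 7.02% in the alignment-based tables and was listed at 0 in both read-based ones, where Camk2g-207 instead held 16.2% and 9.72%. Camk2g was also the member whose leading form changed with the quantification: Camk2g-212 led by read-based TPM, at 21.9% and 24.8%, and Camk2g-201 led by read-based counts, at 42.5% and 45.1%.

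Camk2d encodes the delta subunit, best known as the main CaMKII of the heart. The gene (ENSMUSG00000053819.16) lies on the plus strand of chromosome 3, 126596302 to 126846326, and has 28 annotated transcripts, more than any other member. It was the lowest of the 4 CaMKII genes, at 79.22 and 79.99 TPM, rank 1317 and rank 1259, or 4.94% and 4.76% of the CaMKII sum. Camk2d-206, of 512 amino acids, was the leading form at 34.2% and 25.3% of the TPM. Camk2d-226 (499 amino acids) had 13% and 5.88%, Camk2d-203 (512 amino acids) 5.58% and 12%, and Camk2d-221 (533 amino acids) 5.23% and 2.43%. The read-based shares were 41.2% and 32.7% for Camk2d-206, 7.35% and 3.13% for Camk2d-226, 3.89% and 6.36% for Camk2d-203, and 8.57% and 8.89% for Camk2d-221. Camk2d-228 (533 amino acids) had 4.72% and 10.8% of the TPM, 7.67% and 18.3% of the counts, and 3.29% and 5.49% of the read-based TPM. Reads were divided among these forms with large errors. Camk2d-203, for example, was given 391.8 and 837.6 counts with posterior SDs of 196 and 186 counts, which are the deposited errors of dividing reads among transcripts. The 12 Camk2d transcripts annotated with a retained intron held 19.4% and 23.9% of the TPM but 9.03% and 10.6% of the counts. In the alignment-based tables the largest of them by TPM was the 618-base Camk2d-217, at 9.52% and 12.8%, but its read-based shares were 5.91% and 0%. The 640-base coding fragment Camk2d-220 held 12.03% and 9.04%.

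**Figure D2:**
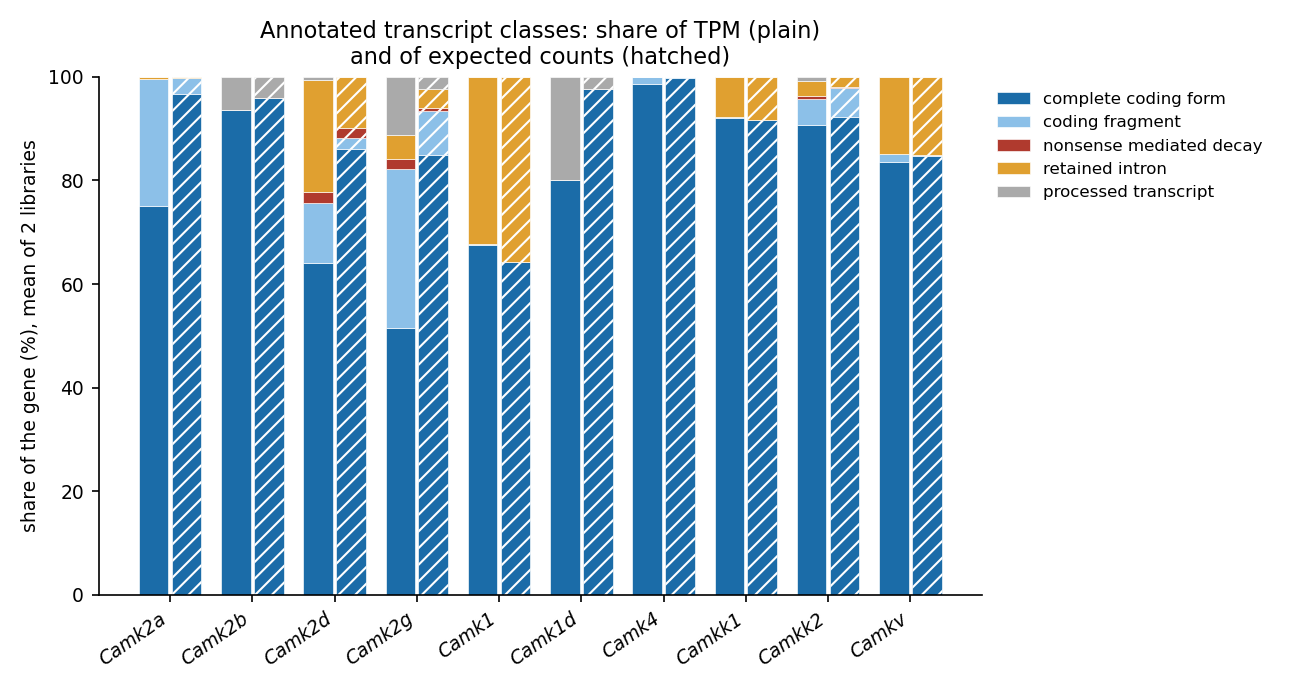
Share of each gene held by annotated transcript classes, as the mean of 2 libraries in the alignment-based tables, with TPM in the plain left bar and expected counts in the hatched right bar. Short coding fragments and processed transcripts take far more of the TPM than of the counts in Camk2a, Camk2d, Camk2g and Camk1d. The retained intron class of Camk1 is similar on both scales, at 32.4% and 35.7%.

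Alternative exons set the CaMKII forms apart. Most of them lie in the variable segment between the kinase domain and the association domain that builds the ring. Inclusion was taken as the share of TPM of complete coding forms spanning an exon that also contain it. The sequences below are 9 exons that separate complete coding forms of Camk2b, Camk2d and Camk2g, shown because the following values compare them between genes or between forms of a gene. They come from the GENCODE M21 transcripts, 5′ to 3′ along the gene's strand. The exon is in capitals and the 10 neighbouring transcript bases on each side are in lower case.
Camk2b 75-base exon, chr11:5987057-5987131, minus strand: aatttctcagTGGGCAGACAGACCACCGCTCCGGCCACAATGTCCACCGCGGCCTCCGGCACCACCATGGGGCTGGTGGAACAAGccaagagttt
Camk2b 45-base exon, chr11:5981070-5981114, minus strand: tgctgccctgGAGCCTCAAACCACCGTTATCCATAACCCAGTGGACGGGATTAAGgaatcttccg
Camk2d first 73-base exon, chr3:126770785-126770857, plus strand: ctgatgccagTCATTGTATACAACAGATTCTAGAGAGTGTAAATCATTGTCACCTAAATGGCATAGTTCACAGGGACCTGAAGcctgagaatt
Camk2d second 73-base exon, chr3:126771774-126771846, plus strand: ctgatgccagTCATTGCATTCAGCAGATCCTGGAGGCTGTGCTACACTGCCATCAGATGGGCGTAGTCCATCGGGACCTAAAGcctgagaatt
Camk2d 33-base exon, chr3:126802937-126802969, plus strand: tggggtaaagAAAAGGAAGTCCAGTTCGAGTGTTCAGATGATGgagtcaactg
Camk2d 60-base exon, chr3:126805857-126805916, plus strand: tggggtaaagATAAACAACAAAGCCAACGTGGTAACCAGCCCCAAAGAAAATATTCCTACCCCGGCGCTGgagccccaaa
Camk2d 42-base exon, chr3:126808208-126808249, plus strand: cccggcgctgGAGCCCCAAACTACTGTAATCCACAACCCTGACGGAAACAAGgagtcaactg
Camk2g 33-base exon, chr14:20747819-20747851, minus strand: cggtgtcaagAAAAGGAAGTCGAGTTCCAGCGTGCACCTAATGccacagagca
Camk2g 69-base exon, chr14:20745792-20745860, minus strand: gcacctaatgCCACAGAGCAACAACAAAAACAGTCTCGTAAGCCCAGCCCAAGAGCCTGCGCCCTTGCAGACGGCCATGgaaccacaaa

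The related 33-base exons were included at different levels in 3 genes. This exon is known in the alpha, delta and gamma subunits for carrying a nuclear localization signal. Over its 33 bases the Camk2d copy is identical to the Camk2g copy at 26 positions (78.8%), and the Camk2a copy is identical to each of them at 28 positions (84.8%). Inclusion was 13.0% and 14.0% for Camk2a in replicates 1 and 2, and 0.285% and 0.749% for Camk2d. The Camk2d value rests on Camk2d-205 alone, with 9.88 and 23.61 counts and posterior SDs of 11.92 and 16.74 counts. For Camk2g inclusion was 33.1% and 37.9%, and 43.5% and 48.1% with coding fragments counted. The 3 genes did not overlap between libraries, and the read-based values kept the same order, at 9.80% and 12.9% for Camk2a, 1.34% and 3.16% for Camk2d, and 52.0% and 53.4% for Camk2g. A 33-base exon of Camk2b is a different sequence, with 10, 7 and 9 bases identical to those of Camk2a, Camk2d and Camk2g, and its inclusion was 0% and 0.12%. Its read-based values, 1.85% and 3.56%, overlapped those of the Camk2d exon.

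In Camk2d the pair of 73-base exons is mutually exclusive in the annotated complete forms and lies in the part that codes for the kinase domain. They are identical at 50 of 73 positions (68.5%). The first was used in 83.7% and 76.6% of the TPM and the second in 16.3% and 23.4%, and the read-based values for the second were 18.3% and 24.3%. The 60-base exon was included at 74.9% and 82%, and the 42-base exon at 78.5% and 87.9%. With coding fragments counted beside complete forms, the 42-base exon was at 66.4% and 74.6%. The read-based inclusion of the 60-base exon was 83.7% and 85.2%, and that of the 42-base exon 86.2% and 90.2%.

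Camk2g used its 69-base exon at 51.2% and 53.4%, against 68% in both read-based tables. With fragments counted it was 32.8% and 34.0%, so this value moved with the definition by more than the difference between the animals. Camk2b had almost uniform use of its variable exons. The 75-base exon, which is known to contribute to actin binding, was at 96.9% and 96.6%, and the 45-base exon at 96.9% and 96.7%. The read-based inclusion was 93.7% and 90.9% for the 75-base exon and 95.5% and 94.5% for the 45-base exon. A 72-base exon was at 100% in both libraries. The 114-base exon of Camk2b and its pair of 129-base exons, which together make the proline-rich insert known from muscle forms, were each at 0.74% or less in both alignment-based libraries. In the read-based tables they were at 0.756% to 2.14%. The 114-base exon of Camk2g was at 1.04% and 1.80%, at 4.59% and 4.16% in the read-based tables, and at 14.6% and 13.6% with coding fragments counted, so its inclusion rested on how fragments are treated.

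**Figure D3:**
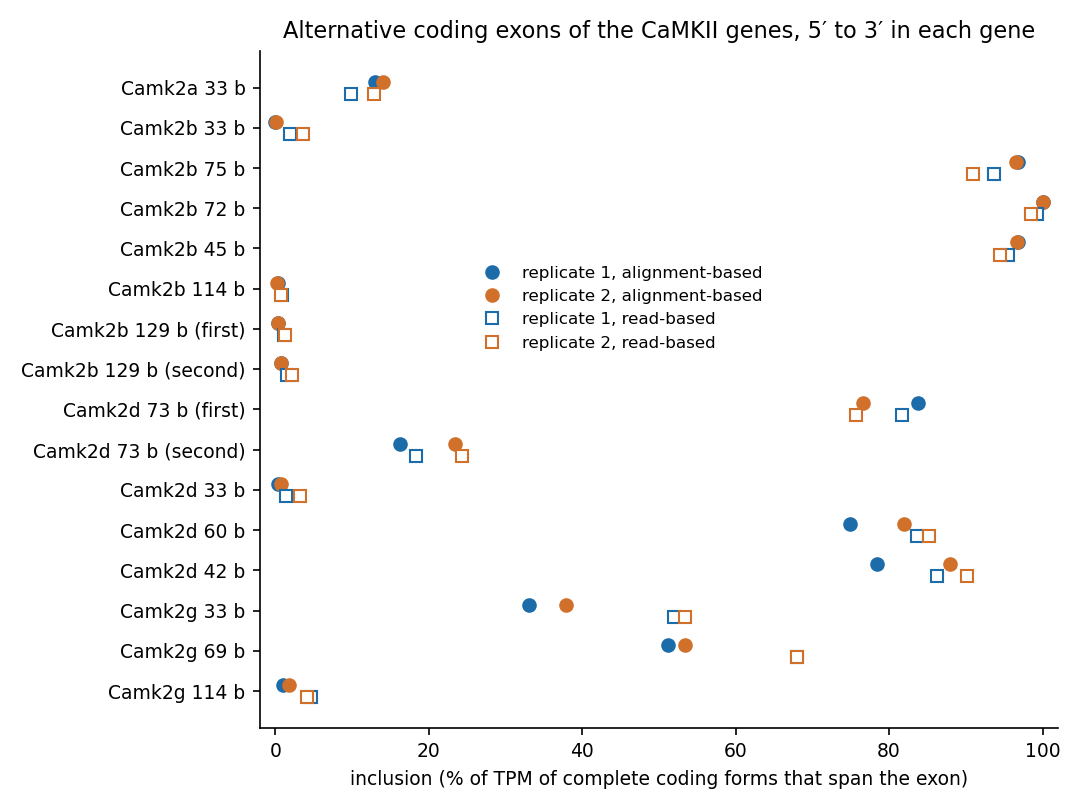
Inclusion of 16 alternative coding exons of the 4 CaMKII genes, named by length in bases (b) and listed from 5′ to 3′ within each gene, in percent of the TPM of complete coding forms that span the exon (blue, replicate 1; orange, replicate 2; filled circles, alignment-based; open squares, read-based). The 33-base exon is at 0.285% and 0.749% in Camk2d and at 33.1% and 37.9% in Camk2g, and the Camk2b exons lie close to 0% or to 100%.

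The genes of CaMKI and CaMKIV stood far below Camk2a. Camk4 encodes CaMKIV, a mostly nuclear kinase that phosphorylates the transcription factor CREB. The gene (ENSMUSG00000038128.7) lies on the plus strand of chromosome 18, 32934931 to 33191228. It stood at 77.62 and 76.39 TPM in replicates 1 and 2. Camk1d, which encodes CaMKI delta, was at 58.01 and 58.40 TPM, and Camk1, which encodes CaMKI alpha, at 48.15 and 53.46 TPM. Camk4 exceeded Camk1d by 1.34-fold and 1.31-fold, and Camk1 by 1.61-fold and 1.43-fold. The read-based folds of Camk4 were larger, at 1.85 and 1.77 over Camk1d and at 1.96 and 1.69 over Camk1.

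Camk4 read as a single form in the alignment-based tables, with Camk4-201 (469 amino acids) at 98.4% and 98.8% of the TPM. The read-based tables gave that form 72.3% and 73.0%, and gave 17.6% and 23.5% to Camk4-203, a transcript annotated for nonsense-mediated decay that was listed at 0 in both alignment-based libraries. An antisense gene, 2310026I22Rik, shares 72 exon bases with Camk4 on the opposite strand and had 7 and 4 counts.

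Camk1d (ENSMUSG00000039145.16, minus strand of chromosome 2, 5293457 to 5714515) had a long leading form. Camk1d-201, with 6962 bases and 385 amino acids, took 94.05% and 93.98% of the counts but 64.7% and 65.7% of the TPM. The 653-base processed transcript Camk1d-204 took 2.36% and 2.04% of the counts and 20.1% and 17.6% of the TPM. In the read-based tables it held 5.38% and 3.95% of the TPM, and Camk1d-201 held 73.3% and 75%. Camk1d-202, of 377 amino acids, held 13.9% and 15.8% of the TPM. At the length of Camk1d-201 the level of the gene was 39.9 and 40.8 TPM, which placed it last of the 10 members and below Camk1 at 50.3 and 56.5 TPM on that scale.

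Camk1 (ENSMUSG00000030272.15, minus strand of chromosome 6, 113334124 to 113343984) had the largest retained intron share of the 10 members in both quantifications. Its complete coding form Camk1-201, of 374 amino acids, held 69.3% and 65.6% of the TPM. The 4 transcripts annotated with a retained intron held 30.7% and 34% of the TPM and 33.6% and 37.8% of the counts, led by Camk1-202 at 16.0% and 13.7% of the TPM, with Camk1-206 at 5.57% and 8.08%. The read-based share of Camk1-202 was 9.36% and 9.35%. In the read-based tables the class held 23.8% and 29.7%. Camk1 shares 232 exon bases with the DNA repair gene Ogg1 on the opposite strand. Ogg1 had 95 and 76 counts beside 1530 and 1688 for Camk1, and reads in the shared bases cannot be told apart if strand was not used.

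Camkk2 was the more abundant of the kinase kinases. It encodes the beta isoform, which activates CaMKI, CaMKIV and the energy sensor AMPK, while Camkk1 encodes the alpha isoform. Camkk2 (ENSMUSG00000029471.13, minus strand of chromosome 5, 122731170 to 122779409) was at 101.2 and 105.2 TPM in replicates 1 and 2. Camkk1 (ENSMUSG00000020785.17, plus strand of chromosome 11, 73019008 to 73042073) was at 51.88 and 55.62 TPM. Camkk2 exceeded Camkk1 by 1.95-fold and 1.89-fold, and by 2.43-fold and 2.22-fold in the read-based tables. Both kinase kinases together stood at 0.833-fold and 0.855-fold the summed TPM of Camk1, Camk1d and Camk4. In the read-based tables this was 0.909-fold and 0.949-fold.

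Camkk2-201, of 588 amino acids, held 74.2% and 76.9% of the Camkk2 TPM, and Camkk2-211, of 541 amino acids, 12.1% and 7.92%. A 43-base coding exon that Camkk2-201 has and Camkk2-211 lacks was therefore included at 86% and 90.7%. In the read-based tables Camkk2-201 held 58.5% and 61.5%, with 12.3% and 13.4% in Camkk2-207, a 567-base transcript annotated for nonsense-mediated decay. Camkk1-201, of 505 amino acids, held 92.2% and 91.9% of the Camkk1 TPM and 72.0% and 64.5% in the read-based tables. The retained intron transcript Camkk1-203 held 7.81% and 7.55% of the Camkk1 TPM, against 19.0% and 20.8% in the read-based tables. The fragment Camkk1-202 was listed at 0 in replicate 1 and held 0.539% in replicate 2, and held 9.02% and 14.7% in the read-based tables.

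Camkv encodes a vesicle-associated protein that resembles the CaM kinases but lacks kinase activity and is known for maintaining dendritic spines. The gene (ENSMUSG00000032936.13) lies on the plus strand of chromosome 9, 107935674 to 107949691. It stood at 155.8 and 145.6 TPM, rank 500 and rank 522 among protein-coding genes. That was about the level of Camk2g on the deposited scale. At the length of the form with the most counts it was 153 and 143 TPM, above Camk2g in both libraries. Camkv-201, of 512 amino acids, held 83.5% and 77.2% of the TPM, and the retained intron transcript Camkv-202 held 13.6% and 16.2%, against 7.55% and 10.2% in the read-based tables. Camkv-203, annotated for nonsense-mediated decay, was listed at 0 in both alignment-based libraries and held 10.8% and 6.14% of the read-based TPM.

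The animals were close to each other for every member. A ratio of 1 animal to another has no replicate check and allows no p-value, so each is given with an exact binomial interval that covers counting error only. Of the 10 members, 0 differed by at least 2-fold, where 1.8% of the 18490 genes compared did (0.687% higher and 1.11% lower in replicate 1). Beyond counting error 7 of 10 differed, where 22.6% of all genes did. Of these, 5 were lower in replicate 1, where 11% of all genes were, and 2 were higher in replicate 1, where 11.6% of all genes were. The members are deeply counted, with at least 1530 counts each, so the interval is narrow. Among the 5754 genes with a mean of at least 1000 counts, 0.0174% differed by at least 2-fold and 38.2% differed beyond counting error. The median absolute log2 ratio of those genes was 0.06, where that of the 10 members was 0.08. At this depth 0 members at 2-fold is therefore near the share of all such genes.

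**Figure D4:**
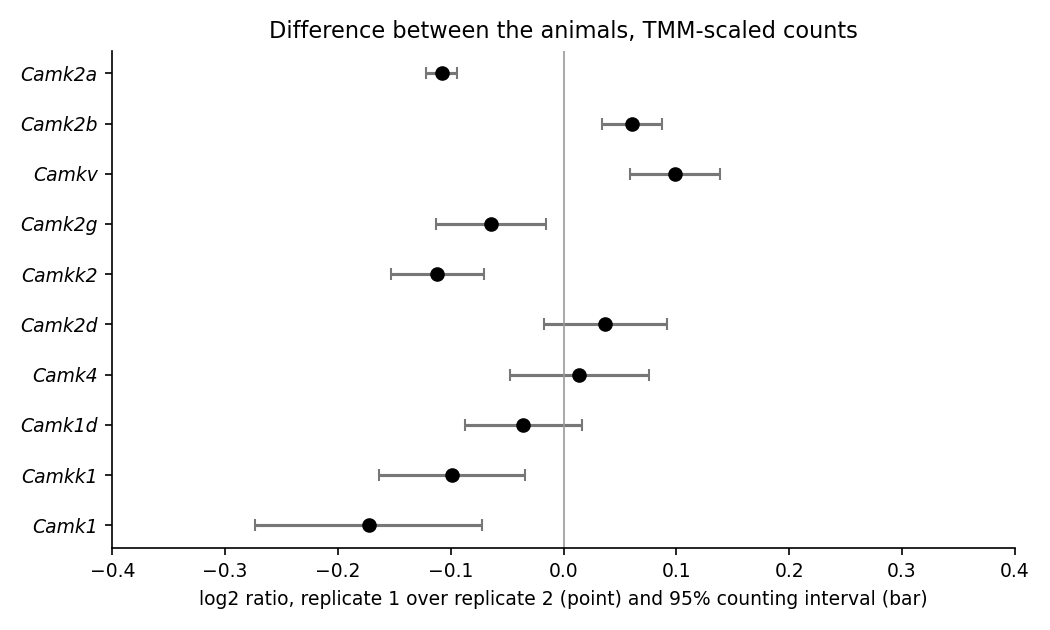
Log2 ratio of replicate 1 over replicate 2 from counts scaled by TMM (a library-size correction), with points for the ratio and bars for the 95% counting interval, for the 10 genes from highest to lowest level. All 10 ratios lie between -0.17 and 0.10, with 5 intervals below 0, 2 above 0 and 3 that include 0.

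The largest member ratio was that of Camk1, which had 1530 and 1688 counts in replicates 1 and 2 and a log2 ratio of -0.17 (-0.27 to -0.07). Camkk2 had 9175 and 9705 counts and a ratio of -0.11 (-0.15 to -0.07), and Camk2a had 84805 and 89456 counts and a ratio of -0.11 (-0.12 to -0.09). Camkk1 was at -0.10 (-0.16 to -0.03) and Camk2g at -0.06 (-0.11 to -0.02). On the other side, Camkv had 10590 and 9680 counts and a ratio of 0.10 (0.06 to 0.14), and Camk2b had 22999 and 21585 counts and a ratio of 0.06 (0.03 to 0.09). Camk2d at 0.04 (-0.02 to 0.09), Camk4 at 0.01 (-0.05 to 0.08) and Camk1d at -0.04 (-0.09 to 0.02) did not differ beyond counting error. In the read-based counts Camk2g no longer differed, at -0.04 (-0.09 to 0.00), and Camk2d did, at 0.07 (0.02 to 0.13), with 4 members lower and 3 higher. Scaled by spike-ins instead, all 10 members were lower in replicate 1, between -0.49 and -0.22, while the median of all genes moved to -0.32, so the direction for Camk2b and Camkv turned with the scaling. Relative to that median they remained higher.

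Cell type markers moved between the same animals. The counts below stand beside 11.6% of all genes higher and 11% lower in replicate 1 beyond counting error. By at least 2-fold, 0.687% of all genes were higher in replicate 1. Among genes with a mean of at least 1000 counts, 38.2% differed beyond counting error in either direction. All 9 striatal neuron markers were higher in replicate 1 beyond counting error, 4 of them by at least 2-fold. Their median log2 ratio was 0.89, and no marker of the list was at 0. All 6 oligodendrocyte markers were higher in replicate 1, with a median of 0.26, and 4 of 5 inhibitory neuron markers were, with a median of 0.14. Of 4 hippocampal markers 4 were higher and 2 beyond counting error, with a median of 0.43. Among them Spink8 had only 26 and 15 counts and C1ql2 had 125 and 81. Of 3 measurable cerebellar granule cell markers 2 were higher beyond counting error, with a median of 0.97. These 2 were Cbln1, with 287 and 142 counts, and Cbln3, with only 21 and 9. Of 6 astrocyte markers 4 were higher and 1 was lower beyond counting error, with a median of 0.06. The microglial median was 0.05 and the endothelial median -0.01, while that of 3 measurable choroid plexus markers was -0.28. The excitatory neuron list had a median of 0.00, with 1 of 5 markers higher beyond counting error. The part of these shifts in the ratios of the kinases was not tested.

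The genes around the kinases were also expressed. Of the 30 in the 5 pathway lists, 0 differed by at least 2-fold between the animals. That share was 1.8% over all genes and 0.0174% among genes with a mean of at least 1000 counts. The pathway counts beyond counting error stand beside 11.6% of all genes higher and 11% lower in replicate 1. Among genes with a mean of at least 1000 counts, 38.2% differed so in either direction. Among 5 further calmodulin-regulated or CaM kinase-like genes, 0 were higher and 1 was lower in replicate 1 beyond counting error. The highest mean was that of Cask, a synaptic scaffold with a CaM kinase-like domain, at 50.65 and 47.29 TPM. Dapk1, at 48.67 and 44.62 TPM, overlapped it between the animals. In the read-based tables Pnck was above Cask, at 97.1 and 86.5 TPM against 76.9 and 75.6 TPM. The lowest was Eef2k, which phosphorylates elongation factor 2, at 13.65 and 15.19 TPM with a log2 ratio of -0.21 (-0.34 to -0.08).

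Inhibitors and phosphatases of the kinases were led by Camk2n1, an endogenous inhibitor protein of CaMKII, at 603 and 612 TPM. Camk2n1 thus stood at 0.376-fold and 0.364-fold the summed TPM of the 4 CaMKII genes. Ppm1f, a phosphatase that acts on CaMKII, was the lowest of the 4 at 18.86 and 20.91 TPM, with a ratio of -0.15 (-0.24 to -0.06). In this list 2 genes were lower in replicate 1 beyond counting error and 0 were higher. The 3 calmodulin genes summed to 1.80-fold and 1.62-fold the CaMKII sum, Calm2 being the highest of their list at 1052 and 966 TPM. Pcp4, a small calmodulin-binding protein, was the lowest of those 5 at 233 and 181 TPM with a log2 ratio of 0.36 (0.28 to 0.45), and 4 of the 5 were higher in replicate 1 beyond counting error.

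Among 8 synaptic partners and substrates of CaMKII, 1 was higher and 4 were lower in replicate 1 beyond counting error. Their median log2 ratio was -0.04, where that of all genes was 0.00. Dlg4, the scaffold PSD-95, was the highest at 360.6 and 361.2 TPM. Cacng2, an auxiliary subunit of AMPA receptors that CaMKII phosphorylates, was the lowest at 26.5 and 26.86 TPM. Grin2b, the NMDA receptor subunit that docks CaMKII at the synapse, was at 128.2 and 135.1 TPM and had the largest ratio, -0.14 (-0.16 to -0.13).

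Among 8 targets of the kinase kinases, CaMKI and CaMKIV, 2 were higher and 2 were lower in replicate 1 beyond counting error, with a median of 0.00. The class IIa histone deacetylase genes Hdac5 and Hdac4, whose proteins leave the nucleus when CaM kinases phosphorylate them, were at 127 and 126.2 TPM and at 46.2 and 53.38 TPM. Hdac4 had the largest ratio of the list, -0.13 (-0.19 to -0.07). The lowest gene was Prkaa1, a catalytic subunit of AMPK, at 9.81 and 9.58 TPM.

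**Figure D5:**
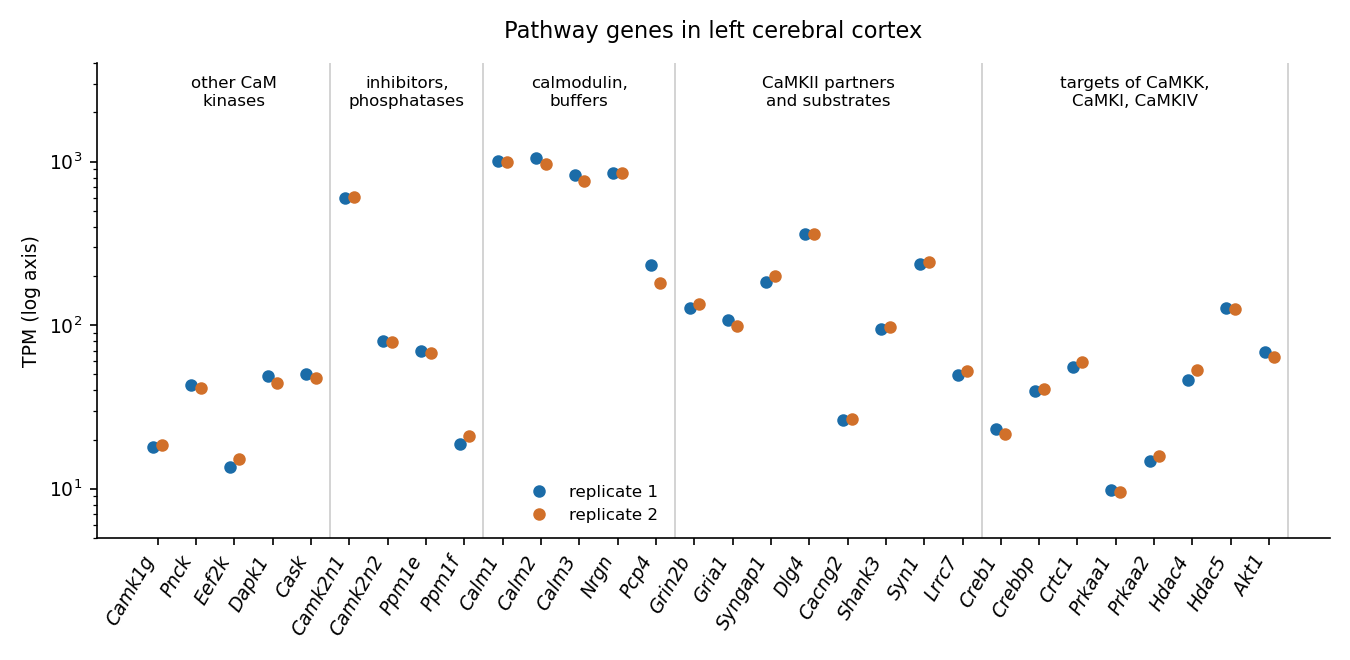
TPM on a log axis of the 30 pathway genes in each library (blue, replicate 1; orange, replicate 2), grouped by list, from Prkaa1 at 9.81 and 9.58 TPM to Calm2 at 1052 and 966 TPM. The points of the 2 animals lie close together for every gene, with the widest gap on the log2 scale at Pcp4.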

How the data were processed

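Total RNA libraries of 2 animals of 1 group were analysed. The deposited gene tables and the first transcript tables hold expected counts, TPM and, per transcript, the percent of the gene's TPM, all made by the authors from an alignment to the transcriptome (mm10, GENCODE M21), per the description deposited with them. The deposited posterior SD of each count, a score in reads, was used as given. The second deposited transcript tables hold estimated counts and TPM made from 1 reads file with an index of the same annotation. The sources used here do not give the programs and versions or say whether counting used strand. Replicates were not pooled, per the file headers.

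Rows naming no gene held 1.78e-05% and 2.48e-05% of the counts in replicates 1 and 2 and, with the spike-ins, stayed out of the library sizes of the main ratios. The total counts of the libraries and the CPM floors given above include both kinds of rows. Levels are deposited TPM, with mean ± SD over 2 animals. Expected counts were rounded, genes kept at a mean of 10 counts or more, and log2 ratios (replicate 1 over replicate 2) taken with edgeR 4.0.16 in R 4.3.3 from TMM-scaled CPM, prior count 2, with exact conditional binomial 95% intervals. The calculation was tested on simulated data. Without molecular identifiers, reads need not be separate molecules, so intervals and floors cover counting error only. The libraries are distinct: the chi-square of their counts over 18490 genes was 6.42 per degree of freedom. The posterior SD of the gene count was 0 for all 10 members in both libraries.

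Complete coding forms are protein-coding transcripts without an annotation mark of a missing start or end, and fragments are those with one. Every member was named, with its leading forms and each form of at least 5% in both libraries of either quantification, and from each pathway list the highest, the lowest and the most different gene. Members, lists and rules were chosen with earlier results of these data known. Likeness of pattern to other genes was not computed, since 2 libraries of 1 group give no pattern across conditions. Alternatives were the read-based tables, posterior mean TPM, protein-coding scaling, DESeq2 1.42.0 size factors, spike-in scaling, other count minimums, prior counts and pseudocounts, and leaving out each animal. Exon inclusion and the length of the form with the most counts were added after seeing the data.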

Additional observations from a re-analysis of the deposited data

How the results depend on the processing

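No paired analysis was possible because the libraries form 1 group. The summed level of the 10 kinases was 2137 TPM, 3408 in the read-based tables, 4386 scaled to protein-coding genes and 1711 at the length of the form with the most counts, an alternative chosen after seeing the data. The share of Camk2a in the CaMKII sum was 69.3%, and 66.5% with that length. Of the 10 members, 4 kept their rank in the read-based tables and 5 with that length. Leaving out an animal gave 2097 to 2177 TPM, 68.3% to 70.2% and 8 to 10 kept ranks. Genes at least 2-fold apart numbered 333 (127 higher and 206 lower in replicate 1), 633 with spike-in scaling (70 higher and 563 lower), 1958 with no count minimum, 29 with a minimum of 100, and 80 on log2(TPM + 1). With spike-in scaling 12323 genes, against 4172, differed beyond counting error, and the log2 ratios of Camk2b and Camkv turned to -0.26 and -0.22. Each alternative run gave 0 pathway genes at 2-fold, each count-based one gave 7 members beyond counting error (10 with spike-in scaling), though in the read-based counts Camk2d replaced Camk2g among them, and the leading form held for 9 of 10 members in the read-based tables. Of values for single genes, leaving aside omission of an animal, which cannot move a mean of 2 by its SD, 25 of 54 exon inclusions, 18 of 20 leading shares and 29 of 40 levels moved by at least the SD between animals, and 11 of 80 ratios by more than their counting interval besides those 2. The causes were not tested. With 2 animals of 1 group, no difference between conditions can be measured, and shares of forms rest on dividing reads among overlapping transcripts.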
